A study of Homo sapiens with 8 samples.

Results

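The genes described here are FAP, DPP4 and 4 genes of the plasminogen activator system, PLAU, PLAUR, PLAT and SERPINE2, followed over 8 expression arrays of 2 human chordoma cell lines. These 6 genes were chosen on values already seen on these same arrays, namely their levels in the control lines and the differences of the TNF arrays from their own controls. Their values are therefore given as a description, with no p-value. Each of the 6 has exactly 1 probe set whose only annotated symbol is that gene, out of 22395 genes with such a probe set. The arrays fall into 4 groups: MUG-Chor1 cells given TNF-α (1 array), MUG-Chor1 controls (3 arrays), U-CH1 cells given TNF-α (1 array) and U-CH1 controls (3 arrays). MUG-Chor1 and U-CH1 were both established from chordomas, rare tumours of the spine and skull base that carry the notochord factor brachyury. TNF-α, an inflammatory cytokine, was added as recombinant human protein at 10 ng/mL, 3 times a week for 1 week. Controls grew under the same normal conditions without it, and all groups were monolayers on gelatin in medium with fetal bovine serum. Each line is 1 line from 1 tumour, each TNF array stands alone, and the labels do not say whether controls were separate cultures, so p-values for other genes measure a spread that may be technical.

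FAP (fibroblast activation protein) and DPP4 (dipeptidyl peptidase 4, also called CD26) are closely related serine proteases of the cell surface that cut after proline. FAP is known from activated fibroblasts of tumours and wounds, where it trims partly degraded collagen and the plasmin inhibitor α2-antiplasmin. DPP4 removes dipeptides from chemokines and gut hormones and binds adenosine deaminase. In the plasminogen activator system, the proteases urokinase (from PLAU) and tissue plasminogen activator (from PLAT) turn plasminogen into plasmin, which dissolves fibrin and degrades matrix. Urokinase is held at the cell surface by its receptor uPAR (from PLAUR). SERPINE2 encodes protease nexin-1, a secreted and matrix-bound inhibitor of thrombin, urokinase and plasmin.

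Array medians ran between 2.52 and 2.63 on the log2 scale. Over the 16986 genes tested, the MUG-Chor1 TNF array correlated with its line's controls at a mean r of 0.932 and the U-CH1 TNF array with its own at 0.943, against 0.960 to 0.970 for the control arrays. MUG-Chor1 control 3 had the lowest of these control values, and on it 5 of the 6 genes read lower than on MUG-Chor1 controls 1 and 2. The TNF differences of the 6 genes in MUG-Chor1 are therefore also given without it, and for other genes a value without it stands where it changes a call or moves a called difference by more than 1.5 times. In bulk RNA, more cells that carry a transcript and more transcript per cell cannot be told apart.

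FAP was low on every array but one. It read 5.71 on the MUG-Chor1 TNF array, against 1.98, 2.29 and 1.63 on the MUG-Chor1 controls. In U-CH1 it read 1.75 with TNF, against 1.92, 1.99 and 1.96 on the controls. The high value thus belongs to a single array, and the other 7 arrays all lie below 2.57, the median of all deposited values, which was also the filter for testing. FAP passed that filter through the MUG-Chor1 TNF array alone, so a gene of this pattern could enter the fit only by differing there. The log2 difference between TNF and control was 3.74 ± 0.30 (SE of the fit) in MUG-Chor1, 13.4-fold on the deposited scale, and 3.57 without MUG-Chor1 control 3. In U-CH1 the difference was -0.21 ± 0.30 (SE). The U-CH1 TNF array lay below all 3 of its controls, by 0.17 from the lowest, a distance smaller than the 0.23 pooled SD of the controls. The control lines were alike in FAP, at 1.97 ± 0.33 in MUG-Chor1 and 1.96 ± 0.04 in U-CH1 (SD, n = 3 each).

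DPP4, a near neighbour of FAP in the genome, separated all 4 groups. It read 8.21 on the MUG-Chor1 TNF array, against 6.53, 6.75 and 5.66 on the MUG-Chor1 controls. In U-CH1 it read 3.92 with TNF, against 2.71, 3.24 and 3.15 on the controls. The order was MUG-Chor1 TNF, MUG-Chor1 control, U-CH1 TNF, U-CH1 control, with no overlap between neighbouring groups. The controls averaged 6.32 ± 0.58 in MUG-Chor1 and 3.03 ± 0.28 in U-CH1 (SD, n = 3 each), a log2 difference of 3.28 ± 0.29 (SE) or 9.73-fold, and 3.61 without MUG-Chor1 control 3. The difference between TNF and control was 1.89 ± 0.41 (SE) in MUG-Chor1, 3.72-fold, and 1.57 without MUG-Chor1 control 3. In U-CH1 it was 0.89 ± 0.41 (SE), or 1.85-fold. The TNF differences of the lines differed by 1.01 ± 0.57 (SE), or by 0.68 without MUG-Chor1 control 3, and the U-CH1 TNF array stayed below every MUG-Chor1 control. DPP4 thus already stood high in untreated MUG-Chor1, where FAP did not.

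**Figure D1:**
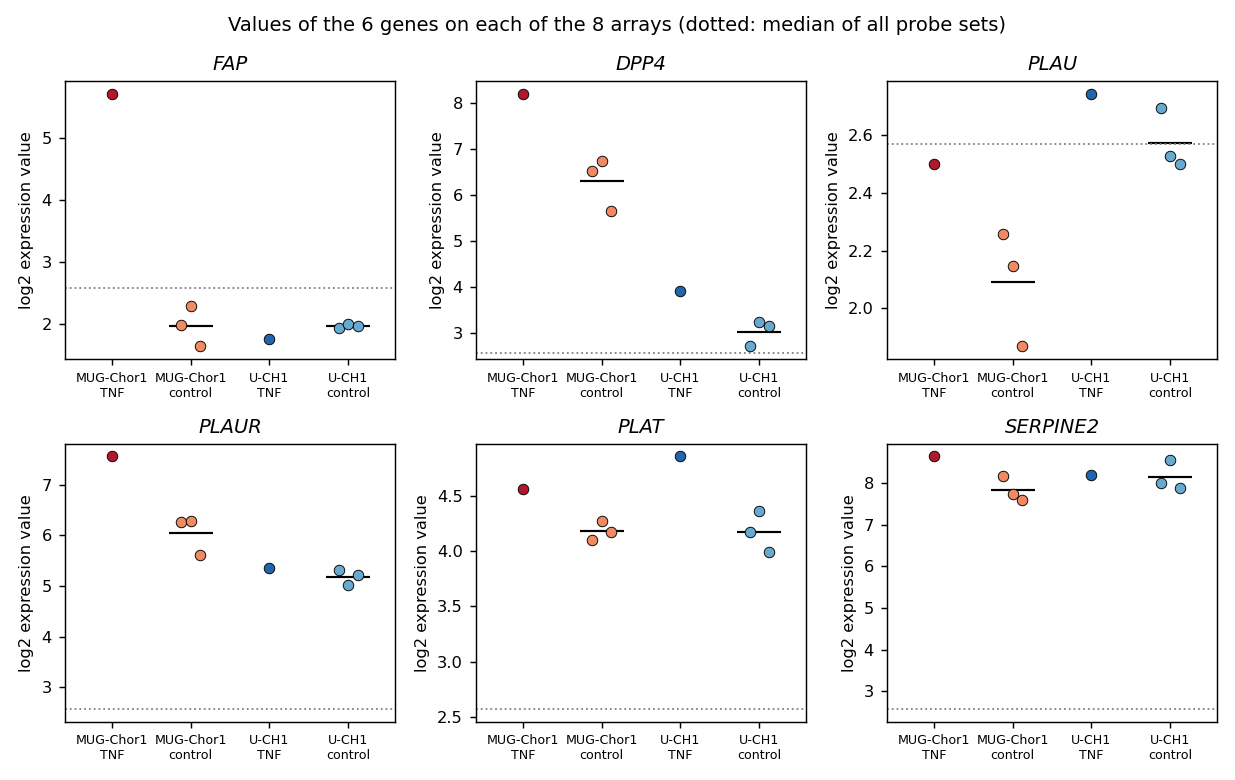
Log2 expression values of the 6 genes (y axis, each panel on its own scale) on the 8 arrays, grouped as MUG-Chor1 TNF, MUG-Chor1 control, U-CH1 TNF and U-CH1 control; points are arrays, horizontal bars are means of 3 controls and the dotted line is the median of all probe sets, 2.57. FAP stands at 5.71 on the MUG-Chor1 TNF array alone, and DPP4 separates the 4 groups.

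PLAUR, which encodes the urokinase receptor, followed the same order as DPP4 with smaller steps. It read 7.56 on the MUG-Chor1 TNF array, against 6.27, 6.28 and 5.62 on the MUG-Chor1 controls. In U-CH1 it read 5.36 with TNF, against 5.32, 5.02 and 5.22 on the controls. The MUG-Chor1 groups were clearly apart, whereas the U-CH1 TNF array exceeded the highest U-CH1 control by only 0.04, within the 0.15 SD of those controls. The TNF difference was 1.51 ± 0.32 (SE) in MUG-Chor1, 2.84-fold, and 1.29 without MUG-Chor1 control 3, against 0.17 ± 0.32 (SE) in U-CH1. Between the controls, MUG-Chor1 averaged 6.06 ± 0.38 and U-CH1 5.19 ± 0.15 (SD, n = 3 each), a log2 difference of 0.87 ± 0.23 (SE) that became 1.09 without MUG-Chor1 control 3.

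PLAU, which encodes urokinase itself, stayed near the median of all probe sets throughout. It read 2.50 on the MUG-Chor1 TNF array, against 2.26, 2.15 and 1.87 on the MUG-Chor1 controls. In U-CH1 it read 2.74 with TNF, against 2.70, 2.53 and 2.50 on the controls. Only 2 of the 8 arrays, the U-CH1 TNF array and U-CH1 control 1, exceeded the filter of 2.57. The TNF differences were 0.41 ± 0.27 (SE) in MUG-Chor1, or 0.30 without MUG-Chor1 control 3, and 0.17 ± 0.27 (SE) in U-CH1. The line order was the reverse of that of its receptor, since the MUG-Chor1 controls all lay below the U-CH1 controls (log2 difference -0.48 ± 0.19, SE; -0.37 without MUG-Chor1 control 3). No detection call was available, so it cannot be said whether PLAU stood above background.

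PLAT, which encodes tissue plasminogen activator, was the member with the larger TNF difference in U-CH1 than in MUG-Chor1. It read 4.56 on the MUG-Chor1 TNF array, against 4.10, 4.27 and 4.17 on the MUG-Chor1 controls. In U-CH1 it read 4.86 with TNF, against 4.17, 4.36 and 3.99 on the controls. Both TNF arrays lay above all 6 controls, and the control lines overlapped fully, at 4.18 ± 0.09 in MUG-Chor1 and 4.17 ± 0.19 in U-CH1 (SD, n = 3 each). MUG-Chor1 had a TNF difference of 0.38 ± 0.27 (SE; also 0.38 without MUG-Chor1 control 3), and U-CH1 one of 0.68 ± 0.27 (SE). The lines differed in it by -0.30 ± 0.38 (SE), which is less than its own error.

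SERPINE2, the protease nexin-1 gene, had no order of groups that held against the spread of the controls. It read 8.65 on the MUG-Chor1 TNF array, against 8.19, 7.75 and 7.59 on the MUG-Chor1 controls. In U-CH1 it read 8.19 with TNF, against 8.01, 8.57 and 7.90 on the controls. The MUG-Chor1 TNF array lay above its controls, while the U-CH1 TNF array lay inside the range of its own. MUG-Chor1 had a TNF difference of 0.81 ± 0.34 (SE; 0.68 without MUG-Chor1 control 3), and U-CH1 one of 0.04 ± 0.34 (SE), and the controls of the lines overlapped.

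**Figure D2:**
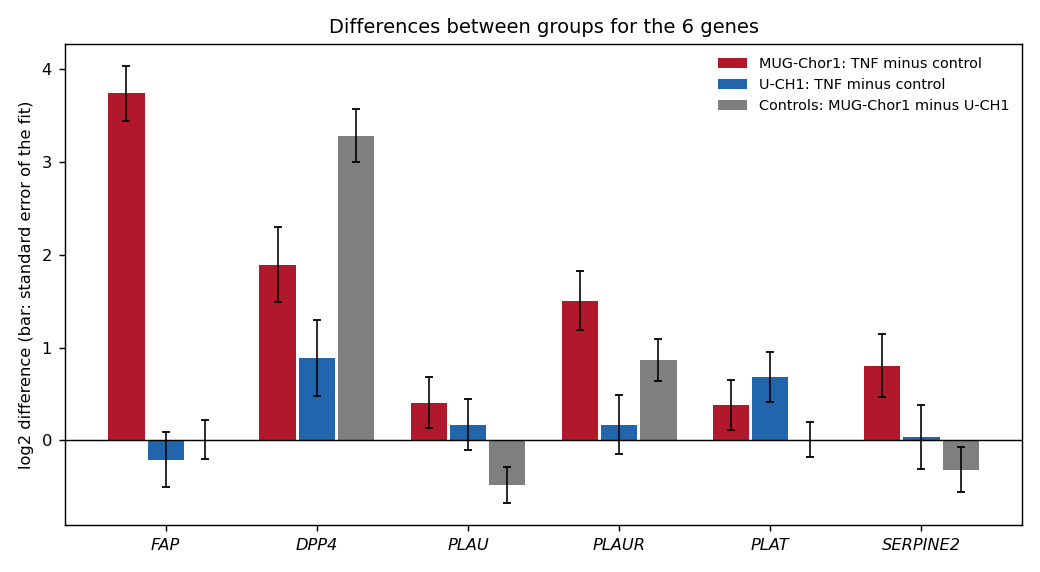
Log2 differences of the 6 genes (y axis) for TNF minus control in MUG-Chor1, TNF minus control in U-CH1, and MUG-Chor1 minus U-CH1 controls; bars start at 0 and error bars are standard errors of the fit. FAP stands at 3.74 for TNF in MUG-Chor1 and at -0.21 and 0.01 in the other comparisons, whereas DPP4 and PLAUR differ between the control lines as well, by 3.28 and 0.87.

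Counted over the 6 genes, the MUG-Chor1 TNF array lay above all its controls for 6 of 6, which 35.3% of all genes tested did. The U-CH1 TNF array lay above all its controls for 4 of 6, against 30.8% of all genes. The controls of the lines did not overlap for 3 of 6 (DPP4, PLAUR and PLAU), against 36.3% of all genes. In the fit across all genes (limma, adjusted p under 0.05), the count of members past the threshold was 3 of 6 for TNF in MUG-Chor1 (FAP, DPP4 and PLAUR), where 2.88% of all genes passed. It was 0 of 6 for TNF in U-CH1 (1.27% of all genes), 1 of 6 where the TNF effects of the lines were compared (FAP; 0.530% of all genes) and 2 of 6 between the control lines (DPP4 and PLAUR; 18.9% of all genes). Because the genes were picked with these comparisons in view, nothing is read from these counts. When each control array was left out in turn, the log2 TNF difference in MUG-Chor1 ran between 3.57 and 3.90 for FAP, 1.57 and 2.11 for DPP4, and 1.29 and 1.62 for PLAUR. Leaving out 1 of 3 controls cannot move a difference by 1 pooled SD, so the width of these ranges was limited in advance. For TNF in MUG-Chor1, FAP passed the threshold in 6 of the 6 repeats, DPP4 in 2 and PLAUR in 3. Between the control lines, DPP4 passed in 6 and PLAUR in 2. Nothing is read from these counts either, because the genes were picked on these differences. FAP also entered every repeat through the MUG-Chor1 TNF array alone.

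The promoter windows of DPP4 and PLAUR are shown because these genes shared an order of groups (r = 0.926 over the 8 arrays, which share lines and treatments). Windows of 300 bases, from 250 before to 50 after an annotated start, were taken from RefSeq (GRCh38.p14) and were found for 4 of the 6 genes: 1 each for DPP4 and PLAUR, 2 each for PLAU and SERPINE2. Both strands were searched for the AP-1 motif TGANTCA, the cyclic AMP response element TGACGTCA and the NF-kB core GGNNTTTCC. Only 1 match was found, so no match overlaps another. Capitals mark it; both sequences are written 5′ to 3′ on the gene's strand.
DPP4, chr2:162074166-162074465, minus strand: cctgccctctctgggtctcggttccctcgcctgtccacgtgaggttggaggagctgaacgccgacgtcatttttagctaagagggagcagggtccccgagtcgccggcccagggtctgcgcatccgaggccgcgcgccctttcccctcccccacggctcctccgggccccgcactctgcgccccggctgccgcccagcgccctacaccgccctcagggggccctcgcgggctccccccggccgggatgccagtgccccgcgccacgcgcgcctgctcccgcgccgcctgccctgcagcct
PLAUR, chr19:43670120-43670419, minus strand: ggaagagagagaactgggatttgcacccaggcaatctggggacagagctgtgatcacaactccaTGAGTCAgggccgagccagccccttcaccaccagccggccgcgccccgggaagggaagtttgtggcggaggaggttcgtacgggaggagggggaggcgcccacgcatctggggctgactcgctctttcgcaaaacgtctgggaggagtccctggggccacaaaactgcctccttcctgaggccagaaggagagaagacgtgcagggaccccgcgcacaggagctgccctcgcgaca
The PLAUR window holds 1 match, to AP-1, whose first base lies at position -186 from the start site. The DPP4 window holds no match to any of the 3 and is 75.0% G and C, against a median of 58.7% over all windows. The 4 windows of PLAU and SERPINE2 hold none either. Of 35116 windows in the table, 7.71% hold the AP-1 motif, 1.85% the cyclic AMP response element and 6.26% the NF-kB core, so a single match is a description only.

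Genes whose pattern was most like that of each member were listed by Pearson's r over the 8 arrays, among tested genes that spanned at least 1 log2 unit (8812 or 8813 genes). With 8 arrays that share lines and treatments these values only describe the pattern. FAP was most like MMP3, a matrix metalloproteinase also called stromelysin-1 (r = 0.992), MORC1 (r = 0.990) and RRAD, a Ras-related GTPase (r = 0.985). MMP3 read 5.84 on the MUG-Chor1 TNF array, against 2.38, 2.29 and 2.14 on the MUG-Chor1 controls. In U-CH1, MMP3 read 2.22 with TNF, against 2.47, 2.47 and 2.31 on the controls. As with FAP, MMP3 was high on 1 array. Like FAP, MMP3 and MORC1 passed the filter through the MUG-Chor1 TNF array alone. With the span of at least 1 log2 unit, this entry made a high r with FAP likely. DPP4 was most like STX5, a syntaxin of the Golgi (r = 0.992), ATP6AP1L (r = 0.990) and MANEAL (r = 0.986). PLAUR was most like TBC1D2 (r = 0.983), UBE2D4 (r = 0.979) and PNLIPRP3 (r = 0.978). PLAU was most like AP2S1 (r = 0.974), KCNN4, a calcium-activated potassium channel (r = 0.972), and HK2, which encodes hexokinase 2 (r = 0.966). The leading genes were TMBIM1 (r = 0.954), RMDN2 (r = 0.942) and FDCSP (r = 0.940) for PLAT, and LINC02902 (r = 0.912), TGM6 (r = 0.906) and NIFK (r = 0.890) for SERPINE2. Among the members themselves, FAP and PLAUR correlated at 0.857, FAP and DPP4 at 0.654, and DPP4 and PLAU at -0.51.

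FAP and DPP4 lie close together on chromosome 2, and the RefSeq gene table (GRCh38.p14, used for order only) places GCG between them and IFIH1 and GCA beyond FAP. These neighbours did not share the FAP pattern. GCG, the proglucagon gene, read 1.23 on the MUG-Chor1 TNF array, against 1.45 to 1.56 on the MUG-Chor1 controls. In U-CH1, GCG read 1.52 with TNF, against 1.46 to 1.51 on the controls, so it stayed below the filter on every array. IFIH1, which encodes the viral RNA sensor MDA5, had its larger TNF difference in U-CH1. It read 6.26 on the MUG-Chor1 TNF array, against 5.47, 5.55 and 5.91 on the MUG-Chor1 controls. In U-CH1, IFIH1 read 7.67 with TNF, against 3.95, 4.23 and 3.86 on the controls, and its TNF effect in MUG-Chor1 minus that in U-CH1 was -3.04 ± 0.41 (SE; limma adjusted p = 0.0124). GCA, which encodes the calcium-binding protein grancalcin, did not pass the test for TNF in either line (log2 0.13, adjusted p = 0.948, in MUG-Chor1 and 0.75, adjusted p = 0.484, in U-CH1). Between the controls IFIH1 was higher in MUG-Chor1 by 1.63 (adjusted p = 0.00039) and GCA by 1.10 (adjusted p = 0.0112), the direction also seen for DPP4. On the far side of DPP4, SLC4A10 and TBR1 stayed below the filter on every array.

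**Figure D3:**
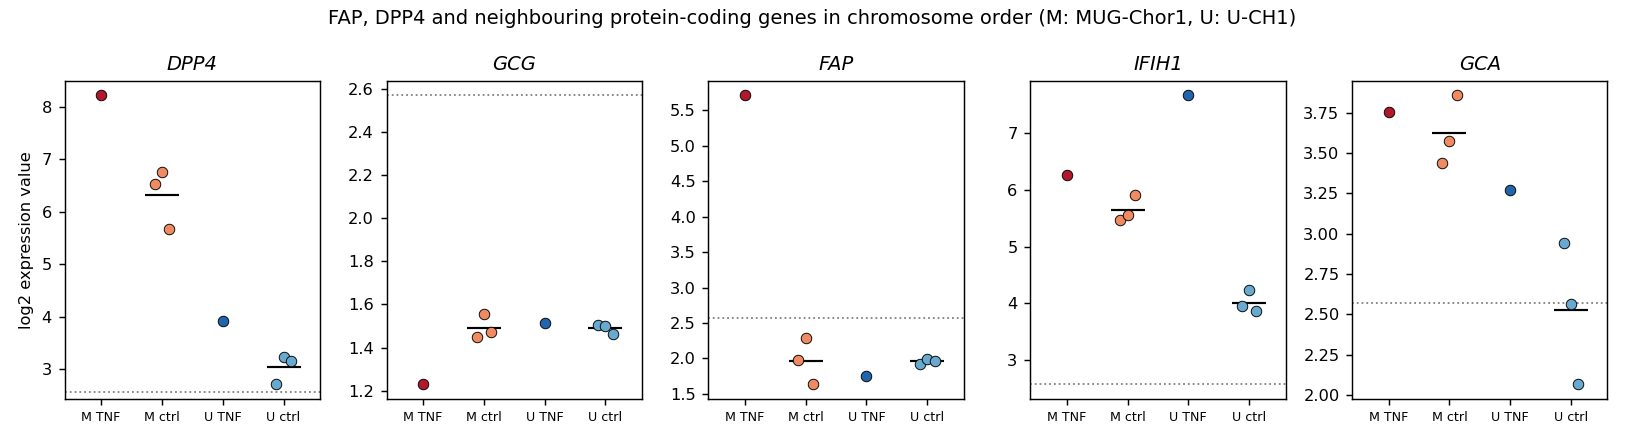
Log2 expression values (y axis, own scale in each panel) of DPP4, GCG, FAP, IFIH1 and GCA, in their order along the chromosome, by group (M, MUG-Chor1; U, U-CH1; ctrl, control); bars are means of 3 controls and the dotted line is the median of all probe sets. FAP is high on the MUG-Chor1 TNF array (5.71) and IFIH1 highest on the U-CH1 TNF array (7.67).

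Around these genes, 78 others of the pathway were taken from 7 lists by their known roles; 73 had a usable probe set and 61 passed the filter. For these the limma test is read. For TNF in MUG-Chor1, 4 of the 61 rose and 2 fell (9.84%, against 2.88% of all genes tested). For TNF in U-CH1, 4 were called higher and none lower (6.56%, against 1.27%). The TNF effects of the lines were called different for 3 (4.92%, against 0.530%), and 8 differed between the control lines, 5 higher in MUG-Chor1 and 3 lower (13.1%, against 18.9%). CXCL10 and CXCL11, which are 2 of the 4 calls in U-CH1 and 2 of the 3 for the TNF effects, entered the fit through the U-CH1 TNF array alone and had to differ there, so these shares are not read as support. Leaving out 1 control array at a time gave 4 to 7 calls for TNF in MUG-Chor1, 4 to 5 in U-CH1, 2 to 3 for the TNF effects and 5 to 12 between the control lines, where the 12 (6 higher and 6 lower) came without MUG-Chor1 control 3 and the 5 without U-CH1 control 1. For the 61 genes the median TNF difference stood at 0.19 for MUG-Chor1 and 0.16 for U-CH1, against 0.06 and 0.04 over all genes tested. By list, in the same order of lines, these medians were -0.04 in MUG-Chor1 and 0.09 in U-CH1 for inhibitors, -0.28 and -0.06 for plasminogen and clearance receptors, and 0.43 and 0.18 for uPAR partners. They were 0.11 and 0.22 for activators of pro-urokinase, 0.21 and 0.24 for the thrombin arm, and 0.35 and 0.99 for DPP4 and FAP partners and substrates. SERPINB2 and F2RL1 are not analysed here.

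Among inhibitors of plasminogen activators and plasmin, 0 of 3 tested genes passed in any comparison in limma, and 0 had an unadjusted p under 0.05. SERPINF2, which encodes the FAP substrate α2-antiplasmin, read 2.55 on the MUG-Chor1 TNF array, against 2.95, 3.06 and 2.54 on the MUG-Chor1 controls. In U-CH1, SERPINF2 read 3.13 with TNF, against 3.13, 2.95 and 3.01 on the controls. SERPINI1, which encodes the tissue plasminogen activator inhibitor neuroserpin, read 4.39 on the MUG-Chor1 TNF array, against 5.36, 5.33 and 2.61 on the MUG-Chor1 controls, so the controls of that line were divided by control 3. In U-CH1, SERPINI1 read 3.93 with TNF, against 2.86, 3.11 and 3.56 on the controls. Its difference between control lines was 1.26 (adjusted p = 0.184), and 2.17 (adjusted p = 0.000187) without MUG-Chor1 control 3.

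Of 8 tested genes for plasminogen receptors and clearance receptors, 2 fell with TNF in MUG-Chor1 and none rose. MRC2, which encodes uPAR-associated protein, a collagen uptake receptor, read 5.17 with TNF, against 7.11, 6.65 and 6.68 on the MUG-Chor1 controls (log2 -1.65 ± 0.30, SE; adjusted p = 0.0138). S100A10, the annexin A2 partner that binds plasminogen at the cell surface, read 5.65 with TNF, against 7.02, 7.05 and 7.81 on the MUG-Chor1 controls (log2 -1.64 ± 0.34, SE; adjusted p = 0.0280). Both TNF values lay below every MUG-Chor1 control, while the MUG-Chor1 TNF value of PLAUR lay above them. The call of S100A10 ended without U-CH1 control 1 (adjusted p = 0.0558). In U-CH1, MRC2 read 6.63 with TNF, against 6.55 to 6.95 on the controls, and the difference of its TNF effects was -1.54 (adjusted p = 0.213). In U-CH1, 0 of the 8 passed in limma and 0 had an unadjusted p under 0.05, with S100A10 at -0.48 (adjusted p = 0.710). The difference of the TNF effects of S100A10 was -1.15 ± 0.48 (SE) and was not called. Between the control lines LRP1, an endocytic receptor that clears urokinase bound to its inhibitors, was higher in MUG-Chor1 by 1.46 ± 0.23 (SE, adjusted p = 0.00151). Its relative VLDLR was lower there by a log2 difference of -2.23 ± 0.33 (SE; adjusted p = 0.00106). ANXA2 was higher by 0.66 (adjusted p = 0.0460), a call that ended in each of the 6 repeats without a control array.

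Of 8 tested genes for uPAR partners, ITGB3, the β3 integrin subunit, rose with TNF in MUG-Chor1. It read 7.10 on the TNF array, against 4.81, 4.49 and 4.95 on the MUG-Chor1 controls (log2 2.35 ± 0.33, SE; adjusted p = 0.00355). In U-CH1, ITGB3 read 3.35 with TNF, against 3.06, 2.33 and 2.74 on the controls. The MUG-Chor1 controls lay above the U-CH1 controls (log2 2.04, adjusted p = 0.000216), so ITGB3 had the group order of DPP4 and PLAUR. The difference of its TNF effects was 1.71 (adjusted p = 0.215). In U-CH1, limma called 0 of the 8 (at an unadjusted p under 0.05, 2 were higher and 0 lower), with ITGA5 at 1.07 (adjusted p = 0.0918). ITGB1 was lower in MUG-Chor1 controls by a log2 difference of -0.58 (adjusted p = 0.0474), and lost the call in each of the 6 repeats without a control array.

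In the tissue factor and thrombin arm, 2 of 11 tested genes rose with TNF in MUG-Chor1. F2RL2, which encodes the thrombin receptor PAR3, read 5.88 on the MUG-Chor1 TNF array, against 2.93, 2.81 and 2.98 on the MUG-Chor1 controls (log2 2.97 ± 0.34, SE; adjusted p = 0.00110). In U-CH1, F2RL2 read 2.60 with TNF, against 3.50, 3.51 and 2.72 on the controls. The TNF effect in MUG-Chor1 exceeded that in U-CH1 by 3.61 ± 0.48 (SE; adjusted p = 0.0112). TFPI2, a matrix-bound inhibitor of plasmin and other serine proteases, read 7.22 on the MUG-Chor1 TNF array, against 4.43, 4.05 and 5.85 on the MUG-Chor1 controls (log2 2.45 ± 0.54, SE; adjusted p = 0.0398). In U-CH1, TFPI2 read 5.56 with TNF, against 3.07, 3.33 and 3.11 on the controls (log2 2.39 ± 0.54, SE; adjusted p = 0.0690, and 0.00242 without MUG-Chor1 control 3). Its MUG-Chor1 call ended in 5 of the 6 repeats without a control array (adjusted p up to 0.114). In U-CH1, limma called 0 of the 11 (at an unadjusted p under 0.05, 3 were higher and 0 lower). TFPI, the tissue factor pathway inhibitor, was higher in MUG-Chor1 than in U-CH1 controls by 1.68 (adjusted p = 0.000786), and TFPI2 by 1.61 (adjusted p = 0.0151, and 0.0621 without U-CH1 control 1), or by 1.07 without MUG-Chor1 control 3.

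The list of relatives of FAP and DPP4 and other proline-specific peptidases, which also holds ANPEP, an aminopeptidase not specific for proline, gave no call for TNF. Of 14 tested genes, limma called 0 for TNF in MUG-Chor1 (at an unadjusted p under 0.05, 2 were higher and 0 lower) and 0 in U-CH1 (0 higher and 1 lower). Between the TNF effects ANPEP, which encodes aminopeptidase N, stood closest at 0.79. ANPEP passed the filter through the MUG-Chor1 TNF array alone, so this value is a description with no p. It is also 1 of the 2 genes counted as higher in MUG-Chor1 at an unadjusted p under 0.05, and had to be high there to be fitted. DPP9, an intracellular relative, stood closest in MUG-Chor1 at 0.87 (adjusted p = 0.220), and DPP6 in U-CH1 at -0.97 (adjusted p = 0.425). The median TNF difference of that list stood at 0.25 for MUG-Chor1 and 0.13 for U-CH1, against 0.06 and 0.04 over all genes tested. Between the control lines PREP, which encodes the cytosolic prolyl endopeptidase, was lower in MUG-Chor1. It read 5.21, 4.82 and 6.34 on MUG-Chor1 controls, against 7.73, 7.68 and 7.88 on U-CH1 controls (log2 -2.31 ± 0.33, SE; adjusted p = 0.000911), while DPP4 stood higher in MUG-Chor1.

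Of 9 tested genes for DPP4 partners and substrates and FAP substrates, 4 were called higher with TNF in U-CH1 and 1 in MUG-Chor1. ADA, which encodes the adenosine deaminase that docks on DPP4, read 4.45 on the MUG-Chor1 TNF array, against 4.15, 4.20 and 3.94 on the MUG-Chor1 controls. In U-CH1, where DPP4 was low, ADA read 6.41 with TNF, against 4.63, 4.26 and 4.81 on the controls (log2 1.84 ± 0.29, SE; adjusted p = 0.0144). The difference of the TNF effects of ADA was -1.49 ± 0.41 (SE) and was not called. The other calls for TNF were chemokines that DPP4 can truncate. CCL5 rose in both lines, by 4.23 in MUG-Chor1 (adjusted p = 0.00428) and by 4.77 in U-CH1 (adjusted p = 0.00584). CCL5 became lower in MUG-Chor1 than in U-CH1 controls without MUG-Chor1 control 3 (log2 -0.97, adjusted p = 0.0102, against -0.33, adjusted p = 0.658, with it). CXCL10 and CXCL11 passed the filter through the U-CH1 TNF array alone, so their values are a description with no p. CXCL10 read 2.41 on the MUG-Chor1 TNF array, against 1.69, 1.47 and 1.63 on the MUG-Chor1 controls. In U-CH1, CXCL10 read 8.91 with TNF, against 1.94, 1.92 and 1.62 on the controls, a log2 difference of 7.09. CXCL11 read 2.28 on the MUG-Chor1 TNF array, against 1.89, 1.92 and 1.96 on the MUG-Chor1 controls. In U-CH1, CXCL11 read 5.14 with TNF, against 2.44, 1.87 and 1.69 on the controls, a log2 difference of 3.14. Both chemokine genes were thus high on 1 array.

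**Figure D4:**
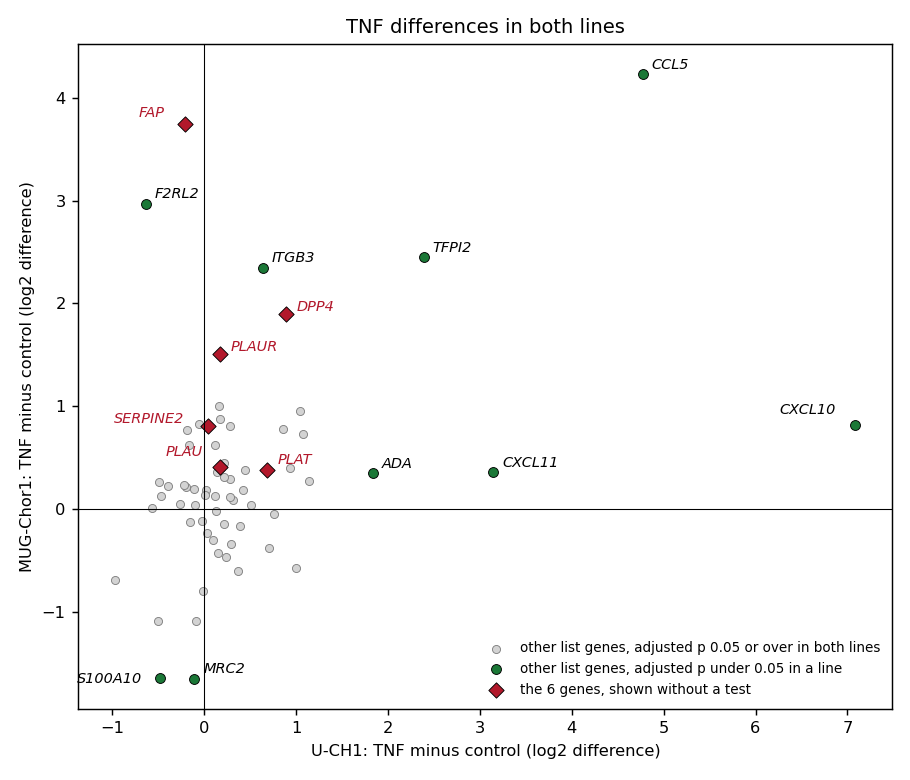
TNF minus control in MUG-Chor1 (y axis) against TNF minus control in U-CH1 (x axis), both log2 differences, for the 61 tested pathway genes (circles; green where adjusted p was under 0.05 in a line) and the 6 genes (red diamonds, shown without a test). FAP and F2RL2 lie high on the MUG-Chor1 axis and left of 0 on the U-CH1 axis, and CXCL10, which with CXCL11 entered the fit through the U-CH1 TNF array alone, lies at 7.09 on the U-CH1 axis.

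Among proteases known to activate pro-urokinase or to act beside it, 0 of 8 tested genes passed in limma in any comparison. At unadjusted p under 0.05, 1 was higher and 1 lower for TNF in MUG-Chor1, none for TNF in U-CH1, 1 lower where the TNF effects were compared, and 1 higher and 1 lower between the control lines. HTRA1, a secreted serine protease, was closest for TNF in MUG-Chor1 at -1.09 (adjusted p = 0.0839). FURIN was closest for TNF in U-CH1 at 0.51 (adjusted p = 0.587). CTSL, which encodes cathepsin L, was closest between the control lines at -0.65 (adjusted p = 0.0506), and passed at -0.82 (adjusted p = 0.0183) without MUG-Chor1 control 3. Between the control lines, calls also appeared without that array for F13A1 (1.17, adjusted p = 0.0128), IGF2R (-0.91, adjusted p = 0.0165) and S100A10 (-0.73, adjusted p = 0.0316). For TNF in MUG-Chor1, CAV1 then passed as well (-1.32, adjusted p = 0.0421).

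Since FAP marks activated fibroblasts, fibroblast markers are given beside it. Of 6 measured markers, 2 rose with TNF in MUG-Chor1, LUM by 3.65 (adjusted p = 0.00442) and DCN by 1.60 (adjusted p = 0.0379, and up to 0.106 without a control array). LUM and DCN encode small proteoglycans of the matrix. COL1A1 read 3.91 on the MUG-Chor1 TNF array, against 4.92, 4.89 and 3.65 on the MUG-Chor1 controls, and THY1 read 3.80, against 4.91, 4.93 and 3.99. PDGFRB read 3.43, against 4.33, 3.83 and 3.81, and COL1A2 read 2.57, against 2.94, 2.56 and 2.42. The summed fibroblast level (log2 of the summed linear values, mostly LUM) was 10.7 on the MUG-Chor1 TNF array, against 6.84 to 8.11 on its controls, and 9.72 on the U-CH1 TNF array, against 9.25 to 9.87 on its controls. Of 8 chordoma markers, 4 fell with TNF in MUG-Chor1 (TBXT by 1.92, KRT19 by 3.08, CD24 by 2.99 and SOX9 by 2.28 on the log2 scale). KRT18, S100A1, KRT8 and VIM were not called. On the MUG-Chor1 TNF array KRT18 read 3.35 and S100A1 2.55, both below all MUG-Chor1 controls. KRT8 read 4.21, against 4.24, 4.67 and 4.98, and VIM read 8.31, within its controls at 8.44, 8.28 and 7.96. The summed chordoma level was 9.79 on the MUG-Chor1 TNF array, against 11.8 on each of its controls. It was 11.3 on the U-CH1 TNF array, against 11.8 to 12.1 on its controls. The TNF effects of the lines differed for KRT19 (-2.05, adjusted p = 0.0364) and CD24 (-2.47, adjusted p = 0.0238), calls that ended in 5 and 4 of the 6 repeats without a control array. Of 8 leukocyte markers, PTPRC, CD3E and MS4A1 lay below the filter on all arrays. The summed leukocyte level, mostly CD68, was 9.26 on the MUG-Chor1 TNF array, against 8.23 to 8.41 on its controls, and 8.69 on the U-CH1 TNF array, against 7.91 to 8.24 on its controls. CD68, a macrophage marker, read 9.17 on the MUG-Chor1 TNF array, against 8.24, 8.25 and 8.02 on its controls, while CSF1R read 3.01, against 3.53, 3.24 and 3.67. ITGAM at 2.81 and TYROBP at 3.08 also lay above all MUG-Chor1 controls, and CD14 lay within the range of its own. On the U-CH1 TNF array all 5 of these markers lay above their controls. None of the 5 was called in any comparison. Of 5 measured endothelial markers, KDR fell with TNF in MUG-Chor1 by 2.37 (adjusted p = 0.0121) and the other 4 were not called. Of these, VWF read 2.91 on the MUG-Chor1 TNF array, above its controls at 2.59, 2.47 and 2.37, CDH5 and TEK read 2.05 and 2.13, below theirs, and CLDN5 lay within the range of its own. The part of these shifts in the FAP value was not tested.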

How the data were processed

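Total RNA of 8 samples was measured on arrays. The deposited table holds 53617 probe sets, and its values were made by the authors with RMA and Transcriptome Analysis Console named, without roles, in the submitters' processing notes. No source states the log base; the deposited values, from 0.0648 to 12.7, were read as log2 because RMA gives that scale. Sorted array values lay a median of 0.0240 from their mean, and a normalization that makes arrays alike would hide a shift shared by all genes. Of the probe sets, 23871 had 1 gene symbol, 1842 several and 27904 are unnamed here; symbols were updated through Entrez identifiers (90 changed), and the brightest probe set on average stood for a gene. Genes above the median of all values (2.57) on at least 1 array were tested (16986 genes). Groups came from sample titles. Two-sided tests came from limma 3.58.1 under R 4.3.3, by eBayes after lmFit, with 4 group means and Benjamini-Hochberg adjustment over all genes tested, at adjusted p under 0.05; the spread comes from the 6 controls, and each single TNF array is assumed to vary like them. The number of arrays limits the precision. The fits were tested beforehand on simulated data in which TNF arrays had the spread of the controls, so that assumption was not checked. For the difference of the TNF effects, 27% of simulated log2 differences of 2 were recovered, and 90% of those of 4. A difference not called there may therefore still be present. The naming rule took the 6 genes, up to 4 called genes per list and comparison or the smallest p where none was called, SERPINF2, SERPINB2 (not analysed here), 1 item that is not reported here, the 3 most similar genes per member and the 2 protein-coding neighbours on each side of FAP and DPP4. Members and lists were chosen with earlier results of these data known. Alternatives covered the filter, probe sets, normalization, the variance model and the arrays fitted. No array batch or date was used here, and any batch shared by the TNF arrays cannot be separated from treatment.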

Additional observations from a re-analysis of the deposited data

Results flagged for a closer look

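The TNF effects of the lines differed in the fit for F2RL2, CXCL10 and CXCL11 of the pathway lists and for IFIH1, the neighbour of FAP. The effect in MUG-Chor1 minus that in U-CH1 was 3.61 for F2RL2, -6.27 for CXCL10, -2.79 for CXCL11 and -3.04 for IFIH1 on the log2 scale (limma, difference of the TNF effects). CXCL10 and CXCL11 entered the fit through the U-CH1 TNF array alone, so for them a difference was a condition of being fitted and the call is a description. FAP drew attention because its TNF arrays lay on opposite sides of their own controls, with a difference of 3.95 between the lines. No test of this difference is read for FAP, which was chosen with it in view and entered the fit through the MUG-Chor1 TNF array alone. The U-CH1 value lay only 0.17 below its lowest control.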

How the results depend on the processing

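All 24 log2 differences of the 6 genes moved by less than 1 SD of the controls under every alternative that gave a value. For most alternatives this was fixed in advance. The filter, the variance model, the probe set choice and fitting fewer groups leave the difference of a gene with 1 probe set unchanged. Leaving out 1 of 3 controls cannot move it by 1 pooled SD. Only the repeated normalization could have done so. Requiring at least 3 arrays above the median removed FAP and PLAU. Of 38 calls among pathway genes, neighbours and markers, 27 held under every alternative that gave a value and 11 were lost under some. The filter of at least 3 arrays gave a value for only 33 of the 38. CXCL10 and CXCL11, above the median on 1 array, had none there. Leaving out 1 control array at a time gave 104 to 329 genes past the threshold for TNF in U-CH1 (216 with all arrays) and 284 to 664 for TNF in MUG-Chor1 (489). The same repeats gave 38 to 152 genes whose TNF effects differed (90) and 2123 to 3090 between the control lines (3209). The lowest counts came without U-CH1 control 2 (104), MUG-Chor1 control 1 (284), U-CH1 control 3 (38) and MUG-Chor1 control 1 (2123). Without MUG-Chor1 control 3 the count was 329 for TNF in U-CH1 and 152 for the TNF effects. With only the 4 arrays of the line, TNF in MUG-Chor1 gave 296 genes, and S100A10 (adjusted p = 0.0977), TFPI2 (adjusted p = 0.156) and CCL5 (adjusted p = 0.0510) lost their calls there. TFPI2 also lost it with no filter (adjusted p = 0.0639), and ITGB1 with an intensity trend (adjusted p = 0.0512). Same-numbered controls of the lines did not deviate together (correlations of 0.04, -0.06 and 0.16), so the numbers were not taken as pairs. A replicate block on the 6 controls gave 3248 genes between the lines; it ended the calls of ANXA2 (adjusted p = 0.0664) and ITGB1 (adjusted p = 0.0688). The cause of these changes was not tested.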
